A study of Mus musculus with 10 samples.

Results

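The genes described here are Jun, Junb and Jund, the 3 members of the Jun family of transcription factors, chosen by symbol from the 230 genes that the authors listed for MIN6N8 cells given IL-22. MIN6N8 is a mouse insulinoma line that secretes insulin and serves as a model of the pancreatic beta-cell. The libraries came from this 1 line, either given PBS as vehicle (5 libraries) or 100 ng mL-1 mouse IL-22 (5 libraries) for 4 h, both in medium with 5.5 mM glucose. The dose is that of the sample labels, and the study's methods text gives a lower one. No allele was altered in either group, and the labels do not say whether replicates were separate cultures. A legend of the study calls the samples independent, without saying of what. Its number of samples differs from the 5 libraries labelled here for each group, and it does not say whether that number is per group. The p-values therefore measure the spread between these libraries, which may be technical. All 230 listed genes have a false discovery rate below 0.05 in the authors' own comparison of the same libraries. A difference between the groups was therefore the condition for a gene to be listed, and the direction of a member is not independent evidence.

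Jun proteins carry a basic leucine zipper, with which they pair with each other or with Fos and ATF proteins to form AP-1, a transcription factor that binds short palindromic DNA sites. Jun is the classical target of the JNK kinases and can drive its own promoter, whereas JunB is a weaker activator that often opposes Jun and JunD is abundant in resting cells and binds the tumour suppressor menin. Cytokine receptors reach these genes through MAP kinases and through STAT3, the main transcription factor of IL-22 signaling, and Junb is known as an early target of STAT3 in other cells.

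Each member has 1 annotated protein-coding transcript, made of 1 exon, on GRCm38 (GENCODE M21). Jun (ENSMUSG00000052684.4) lies on the minus strand of chromosome 4 from 95049034 to 95052222, with a coding sequence of 1002 bases inside a transcript of 3189 bases. Junb (ENSMUSG00000052837.6) lies on the minus strand of chromosome 8 from 84974484 to 84978718, and its protein-coding transcript of 1809 bases covers 84976910 to 84978718. Jund (ENSMUSG00000071076.6) lies on the plus strand of chromosome 8 from 70698949 to 70700616, with a transcript of 1668 bases. The coding sequences are close in length, with 1032 bases for Junb and 1023 for Jund, so that the longer Jun transcript comes from its untranslated ends of 951 and 1236 bases.

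The 250 bases before the start of each gene are shown because the 3 genes were higher together in the same libraries. They were taken from RefSeq on GRCm38.p6 and are written 5′ to 3′ on the strand of the gene. Capitals mark matches to 6 motifs, searched on both strands: the AP-1 site TGANTCA, the AP-1-like or CRE site TGACNTCA, the STAT site TTCNNNGAA, the GC box GGGCGG, the CCAAT box CCAAT and the TATA box TATAAA. The windows are chr4:95052223-95052472 for Jun, chr8:84978749-84978998 for Junb and chr8:70697489-70697738 for Jund.
Jun: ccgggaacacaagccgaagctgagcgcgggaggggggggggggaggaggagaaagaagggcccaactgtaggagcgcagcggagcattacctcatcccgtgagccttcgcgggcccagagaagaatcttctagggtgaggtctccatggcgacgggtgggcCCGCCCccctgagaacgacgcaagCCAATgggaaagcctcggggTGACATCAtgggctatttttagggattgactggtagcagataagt
Junb: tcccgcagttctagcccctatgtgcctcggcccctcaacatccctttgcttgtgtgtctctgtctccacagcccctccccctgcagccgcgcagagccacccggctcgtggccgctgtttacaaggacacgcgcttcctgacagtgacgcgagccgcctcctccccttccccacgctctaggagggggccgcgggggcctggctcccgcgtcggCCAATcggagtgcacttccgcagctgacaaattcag
Jund: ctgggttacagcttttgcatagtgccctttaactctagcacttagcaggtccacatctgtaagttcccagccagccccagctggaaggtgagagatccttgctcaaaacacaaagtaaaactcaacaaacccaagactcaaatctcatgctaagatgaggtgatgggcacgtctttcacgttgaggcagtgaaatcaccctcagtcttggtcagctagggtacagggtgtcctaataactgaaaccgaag
The Jun window held TGACATCA 45 bases before the start, together with a CCAAT box at 65 and a GC box on the opposite strand at 89. The Junb window held 1 match, a CCAAT box 36 bases before the start. A TATA box began at base 1 after the RefSeq start of Junb, and GENCODE places the start of this gene 30 bases further on. The Jund window held 0 matches, and RefSeq places the start of Jund 1210 bases upstream of the GENCODE start, so that this window is not next to the GENCODE transcript. The STAT and AP-1 sites as spelled had 0 matches in these windows. Among 32536 windows of the same length, 7.04% held the STAT site, 6.73% the AP-1 site, 7.43% TGACNTCA, 33.0% the GC box, 33.8% CCAAT and 12.3% TATAAA. These matches describe letters and not binding.

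Junb and Jund both rose, and which of them had the larger fold change depended on the pseudocount. Levels are given in CPM, the count of a gene scaled to the total of its library. The libraries held between 23685886 and 35785875 counted reads, of which the listed genes took 2.87% to 3.11%. Junb rested on 205 to 321 reads with PBS and 378 to 436 with IL-22. With PBS, Junb was at 6.99, 8.66, 9.34, 7.36 and 11.1 CPM in libraries 1 to 5, and with IL-22 at 14.3, 15.0, 14.1, 14.2 and 15.1 CPM. Every IL-22 library lay above every PBS library, and PBS 5 came nearest. Mean expression was 8.69 ± 1.65 CPM in the PBS group and 14.5 ± 0.48 CPM in the IL-22 group (SD, n = 5 each), 1.67 times as high. In edgeR's quasi-likelihood test its log2 fold change was 0.75 (SE 0.11), with a Benjamini-Hochberg adjusted p = 0.00013 over the listed genes.

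Jund, the most abundant member, rose as well. It was at 43.8, 49.1, 63.0, 49.0 and 74.2 CPM in PBS libraries 1 to 5, and at 88.3, 87.3, 91.2, 85.6 and 92.5 CPM in IL-22 libraries 1 to 5. The groups did not overlap, with PBS 5 and PBS 3 as the highest of the PBS libraries and PBS 1 as the lowest. Mean expression was 55.8 ± 12.5 CPM in the PBS group and 89.0 ± 2.82 CPM in the IL-22 group (SD, n = 5 each), 1.59 times as high. The log2 fold change was 0.67 (SE 0.11, edgeR, adjusted p = 0.0002 over the listed genes). With limma on log2(CPM + 5) the value of Jund was 0.65 and that of Junb 0.52, the reverse of the order in edgeR.

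Jun rose less, and its call did not hold under another scaling given further on. It was at 29.2, 30.3, 34.8, 30.1 and 33.3 CPM in PBS libraries 1 to 5, and at 36.5, 37.9, 37.9, 36.4 and 38.2 CPM in IL-22 libraries 1 to 5. The groups again did not overlap, but the gap between PBS 3 and the lowest IL-22 library was 1.64 CPM. Mean expression was 31.5 ± 2.39 CPM in the PBS group and 37.4 ± 0.855 CPM in the IL-22 group (SD, n = 5 each), 1.19 times as high. The log2 fold change was 0.25 (SE 0.056, edgeR, adjusted p = 0.00206 over the listed genes).

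**Figure D1:**
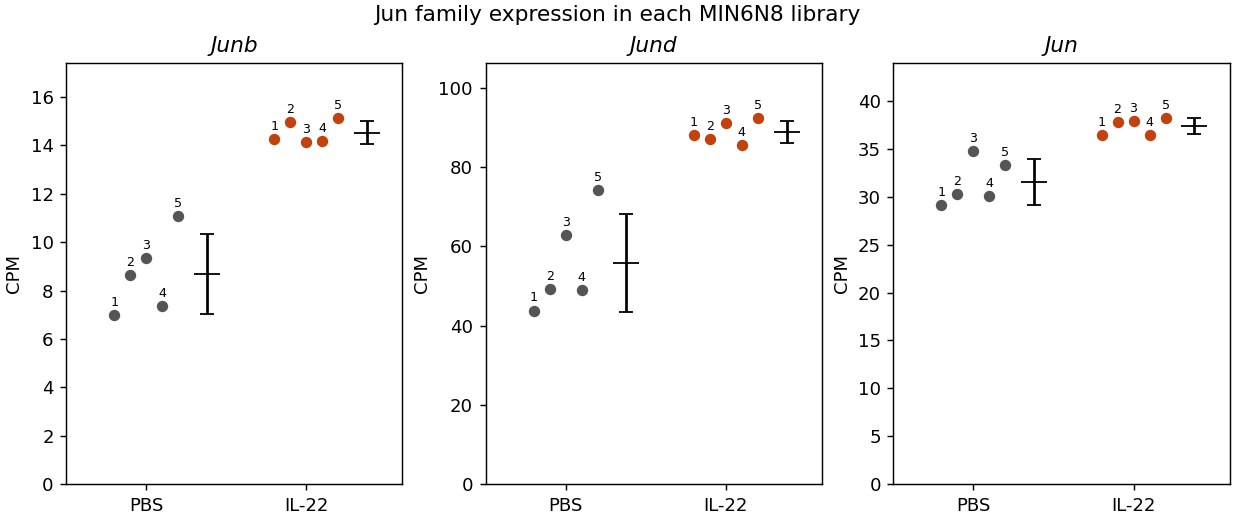
Expression of Junb, Jund and Jun in CPM (vertical axes, from 0) in each library given PBS (grey) or IL-22 (orange). Points are libraries with their replicate number, and black bars give the mean ± SD (n = 5). In each gene the 5 IL-22 points lie close together above the 5 PBS points, with PBS 3 and PBS 5 the highest of their group.

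At an adjusted p below 0.01, 3 of 3 members were called higher with IL-22, where 81.3% of the 230 listed genes were and 13.5% were called lower. These are bulk samples, in which more RNA per cell and a larger share of cells with the transcript cannot be told apart. For each member the exact permutation test of log2(CPM + 1) gave p = 0.00794 (two-sided), the smallest that 5 against 5 libraries allow. Groups that did not overlap, as in all 3 members, were found for 46.5% of the listed genes in the direction of higher expression and for 6.09% in that of lower expression. Among the 230 genes, ordered by log2 fold change from the highest, Junb ranked 15, Jund 19 and Jun 85, and the median over all listed genes was 0.21. The Jun value was thus near the middle of the listed genes. When scaling factors were instead computed over the listed genes (TMM), the median of those genes moved by -0.20, and Jun had a log2 fold change of 0.041 (SE 0.045, edgeR, adjusted p = 0.543), while Junb (0.55) and Jund (0.48) still passed. With that scaling 18 listed genes were called higher and 33 lower, against 187 and 31 with library totals. The call of Jun therefore depended on the scaling, and the calls of Junb and Jund did not. When all 21951 annotated protein-coding genes were counted as tests, with the assumption that unlisted genes would all rank behind the listed ones, 0 of 3 members passed 0.01, where 3.04% of the listed genes were called higher. The adjusted p-values were then 0.0128 for Junb, 0.0188 for Jund and 0.197 for Jun (edgeR), and the unadjusted p-values were 6.09e-06, 1.03e-05 and 0.000466. DESeq2 with library totals gave adjusted p-values over the listed genes of 5.38e-09, 2.41e-05 and 0.000136 for the same genes.

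Whether the members differed from each other in their response was tested on the ratio of their counts within a library, which does not depend on the library total. Jund had 1.502, 1.62, 1.81, 1.63 and 2.22 times the count of Jun in PBS libraries 1 to 5, and 2.42, 2.30, 2.41, 2.35 and 2.42 times in IL-22 libraries 1 to 5. The log2 ratio was 0.45 higher with IL-22 (SE 0.099, 95% interval from 0.21 to 0.63 by inversion of the exact permutation test, p = 0.0119 adjusted over the 3 pairs compared). The counts of Junb were 0.239, 0.286, 0.268, 0.244 and 0.333 of those of Jun with PBS, and 0.391, 0.395, 0.373, 0.389 and 0.396 with IL-22. This difference was 0.51 on the log2 scale (SE 0.087, 95% interval from 0.31 to 0.70, exact permutation test, adjusted p = 0.0119). In both ratios the groups did not overlap, and both Junb and Jund rose by more than Jun in this test. With the GC index of the libraries, described further on, as a covariate, the excess over Jun was 0.34 for Junb and 0.19 for Jund. The SD of the log2 ratio within groups, pooled and without the covariate, was 0.14 and 0.16. No standard error or p-value was computed in that fit, so an excess over Jun apart from base composition was not tested for either gene.

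Junb and Jund were not shown to differ in response. The count of Junb was between 0.148 and 0.176 of that of Jund with PBS, and between 0.155 and 0.172 with IL-22, so that the IL-22 range lay within the PBS range. The difference of their log2 fold changes was 0.06 (SE 0.053, 95% interval from -0.07 to 0.17, exact permutation test, adjusted p = 0.246). This interval, found without the GC index, excludes a difference as large as that of either gene from Jun without the index, but not a small one. PBS 2 had the highest ratio of all libraries, and without it the difference was 0.11 (exact permutation test, adjusted p = 0.0317). With the GC index as a covariate, Junb exceeded Jund by 0.15 and Jund exceeded Jun by 0.19, both without a test.

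**Figure D2:**
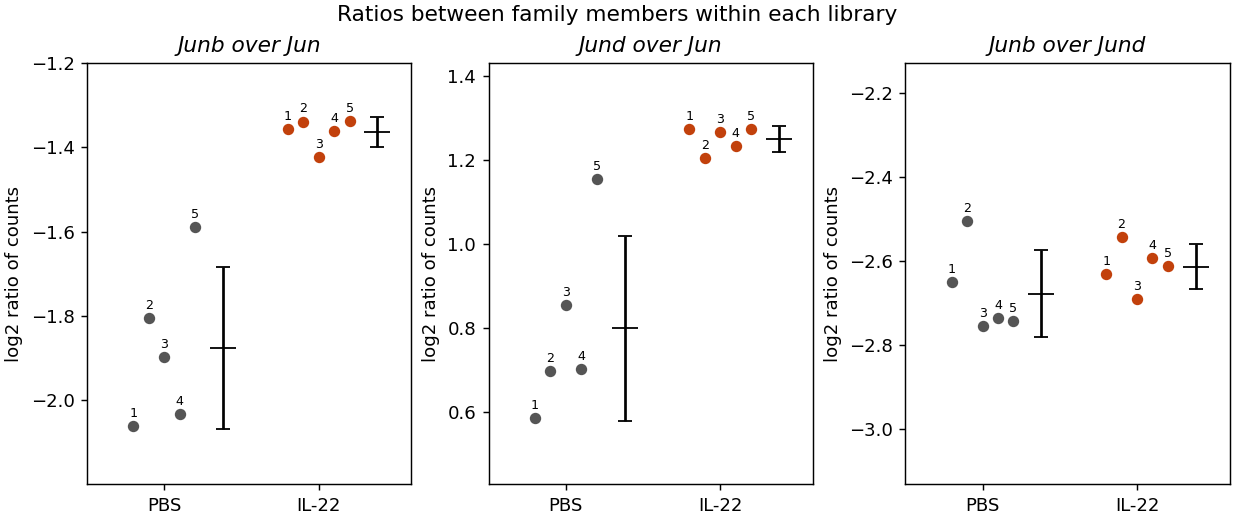
Log2 ratio of the counts of 2 family members within each library (vertical axes, each spanning the same range of 1 unit), given PBS (grey) or IL-22 (orange), with replicate numbers and the mean ± SD in black (n = 5). Both ratios over Jun are higher in every IL-22 library, while the groups overlap in the ratio of Junb to Jund.

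The make-up of the family's reads, not scaled to transcript length, shifted accordingly. Summed over the 3 genes, expression was 96.0 ± 16.1 CPM in the PBS group and 141 ± 3.74 CPM in the IL-22 group (SD, n = 5 each). Jun supplied 33.3% ± 3.21 (SD, n = 5) of the family's reads with PBS and 26.5% ± 0.34 (SD, n = 5) with IL-22, and Jund 57.7% ± 3.07 and 63.1% ± 0.566. Junb was the smallest part in both, at 9.03% ± 0.546 with PBS and 10.3% ± 0.3 with IL-22. The Jund shares of the groups overlapped, with PBS 5 at 62.5% and IL-22 2 at 62.3%.

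Levels of different genes can be compared only per length of transcript. On that scale the order was Jund, Jun, Junb in both groups. With PBS, Jund was at 33.5 ± 7.48 CPM per kb, Jun at 9.89 ± 0.751 and Junb at 4.8 ± 0.91 (SD, n = 5). With IL-22, Jund was at 53.3 ± 1.69 CPM per kb, Jun at 11.7 ± 0.268 and Junb at 8.04 ± 0.265. No neighbours in this order overlapped in range, and the order held in 5 of 5 libraries of each group (exact sign-flip test within a group, p = 0.0625, the smallest that 5 libraries allow). Jun was between 1.71 and 2.37 times as high as Junb per kb in the PBS libraries, and between 1.43 and 1.52 times in the IL-22 libraries. The level per kb of Jund would be lower with RefSeq's longer gene of 2878 bases, though still above that of Jun.

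Expression varied more between PBS libraries than between IL-22 libraries in each member. The SD was 22.3% of the mean for Jund with PBS and 3.17% with IL-22, while counting error alone would give 2.47% and 2.01%. For Junb it was 18.9% and 3.3%, with counting error of 6.27% and 4.96%, and for Jun 7.59% and 2.29%, with 3.28% and 3.09%. The spread of Junb and Jun between IL-22 libraries was thus below the value for counting error, although an SD from 5 libraries is imprecise. Of the 230 listed genes, 164 had the larger SD of log2(CPM + 1) in the PBS group, and by that SD Jund ranked 12, Junb 24 and Jun 96. PBS libraries stood in nearly the same order in all 3 genes, with 1, 4 and 2 low and 3 and 5 high. When PBS 3 and PBS 5 were both left out, a setting chosen after seeing the data, the log2 fold changes were 0.93 for Junb, 0.91 for Jund and 0.33 for Jun. Since these libraries were the highest of their group, leaving them out could only raise the values.

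The base composition of the libraries moved with these values. The transcripts of Jun, Junb and Jund hold 55.5%, 62.6% and 67.1% G and C, against a median of 56.8% over the listed genes and 49.1% over all protein-coding genes, and 9 listed genes exceed Jund. A GC index was computed for each library as the slope of log2 CPM on transcript GC content over the 227 listed genes outside the family, per 10 percentage points. It was -0.616, -0.606, -0.493, -0.534 and -0.378 in PBS libraries 1 to 5, and between -0.423 and -0.374 in the IL-22 libraries. The PBS libraries with the highest Jund thus had the highest index, and 4 of the 5 PBS libraries lay below all IL-22 libraries. PBS 5 had an index within the range of the IL-22 libraries. As a description of this 1 library, picked after its index was seen and with no test, the IL-22 mean was 1.31 times as high as its level for Junb, 1.2 times for Jund and 1.12 times for Jun.

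With the GC index as a covariate, the log2 fold change was 0.48 for Junb (SE 0.11, edgeR, adjusted p = 0.00336), 0.33 for Jund (SE 0.065, adjusted p = 0.000541) and 0.14 for Jun (SE 0.066, adjusted p = 0.0869). The median over the listed genes fell by 0.10 in that fit. The index was computed from genes listed for a difference between the groups, so that index and treatment cannot be told apart, and the part of base composition in these results was not tested further.

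**Figure D3:**
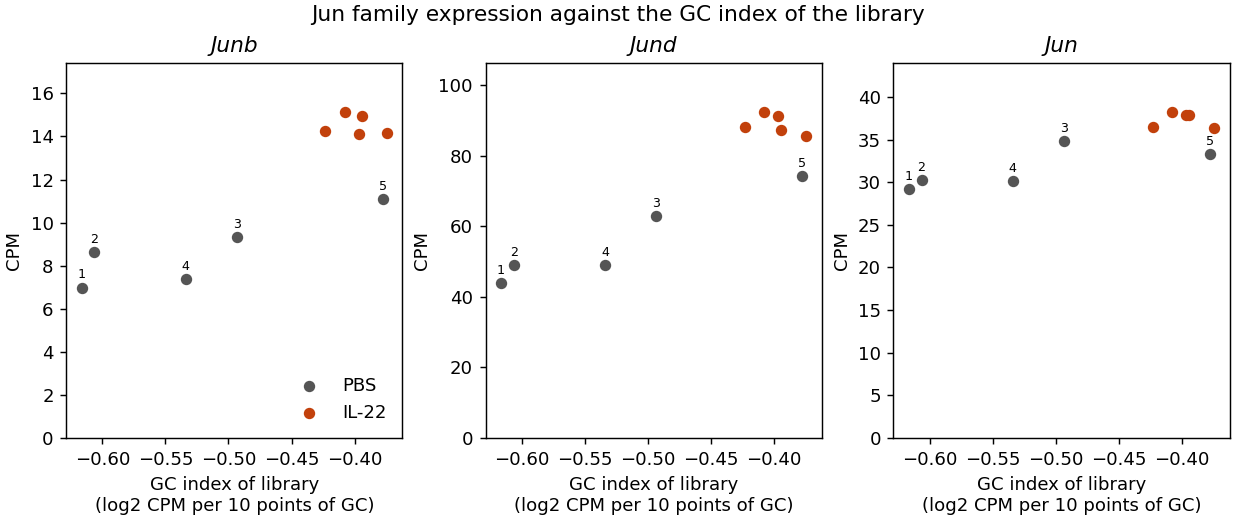
Expression of Junb, Jund and Jun in CPM (vertical axes, from 0) against the GC index of the library (horizontal axes, slope of log2 CPM per 10 percentage points of GC content). PBS libraries are grey with their replicate number, and IL-22 libraries are orange. PBS 5 lies among the IL-22 libraries on the horizontal axis and below all of them in each gene.

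**Figure D4:**
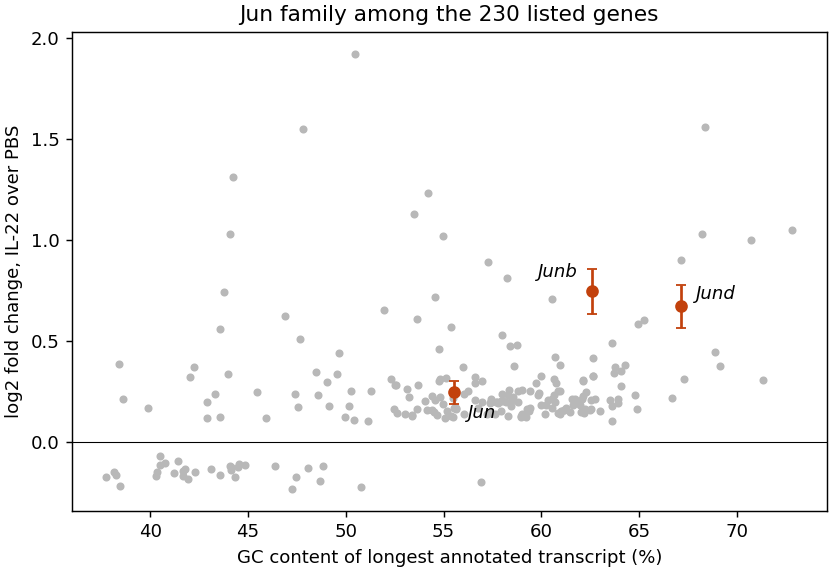
Log2 fold change with IL-22 (vertical axis) against the GC content of the longest annotated transcript (horizontal axis, %) for the 230 listed genes (grey), with the family in orange ± SE. Junb and Jund stand at the GC-rich end with log2 fold changes of 0.75 and 0.67, and Jun stands near the middle in both.

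Reads of the 3 members can be told apart, since their coding transcripts share no identical run longer than 20 bases, found between Jun and Jund. No other annotated transcript on the same strand shares a run of 100 bases with a member. On the opposite strand, Jun overlaps the antisense gene Junos over 689 bases (chromosome 4, 95051534 to 95052222) and Jund overlaps the antisense gene Gm11175 over 919 bases (chromosome 8, 70699162 to 70700080). Junb overlaps Prdx2 over 351 bases, but 0 of these are in its protein-coding transcript. The libraries were stranded, but whether the counting used strand is not given in the sources used here, so that reads of the antisense genes could be counted with Jun and Jund.

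Most other genes of the pathway were not among those listed and were not analysed here. Of 27 AP-1 and other bZIP partners, among them the Fos and ATF genes, 2 were in the table, and both were called higher at an adjusted p below 0.01 over the listed genes, where 81.3% of all listed genes were. Cebpb, a bZIP factor of acute-phase and inflammatory responses, was the lowest expressed, at 1.19 ± 0.333 CPM in the PBS group and 2.2 ± 0.165 CPM in the IL-22 group (SD, n = 5 each; log2 fold change 0.90, SE 0.23, edgeR, adjusted p = 0.00283). Mafa, a bZIP activator of the insulin gene, went from between 43.0 and 69.7 CPM to between 75.5 and 83.7 CPM. Of 33 genes chosen for the MAP kinase route to Jun, 0 were in the table. The choice left out Map3k10, a MAP kinase kinase kinase that is in the table. It was called higher, as 81.3% of all listed genes were (log2 fold change 0.17, SE 0.054, edgeR, adjusted p = 0.00808).

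Of 30 immediate-early genes 1 was in the table. Gadd45g, a stress- and cytokine-induced gene, was at 27.4 ± 3.51 CPM in the PBS group and 32.3 ± 2.31 CPM in the IL-22 group (SD, n = 5 each), and did not pass 0.01 (log2 fold change 0.24, edgeR, adjusted p = 0.0113). Of 19 genes of the IL-22 receptor and JAK-STAT3 signaling 4 were in the table, and 3 of them, Stat3, Socs3 and Jak3, were called higher, a share near the 81.3% of all listed genes. Their log2 fold changes were 0.28, 0.48 and 0.38, each between that of Jun and that of Jund. Bcl3, an atypical IκB protein, had a log2 fold change of 0.33 (SE 0.12, edgeR, adjusted p = 0.0148). Of 16 beta-cell markers 7 were in the table, with 5 called higher and 1 lower, against 81.3% and 13.5% of all listed genes. Those called higher were Pcsk1n, Mafa, Nkx6-1, Nkx2-2 and Pdx1, with log2 fold changes of 0.89, 0.58, 0.26, 0.17 and 0.16. The marker called lower was Slc2a2, the glucose transporter GLUT2 (log2 fold change -0.17, SE 0.044, edgeR, adjusted p = 0.00326). The most abundant was Iapp (islet amyloid polypeptide), at 8928 ± 222 CPM in the PBS group and 8508 ± 336 CPM in the IL-22 group (SD, n = 5 each), with a log2 fold change of -0.07 that did not pass 0.01 (edgeR, adjusted p = 0.023). Of 12 markers of other islet and pancreas cells 0 were in the table.

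Jund was the listed gene most like Junb, and Junb the one most like Jund, by the root mean square difference of log2(CPM + 1) over the 10 libraries after each gene was centred on its mean (0.077). The median difference from the other listed genes was 0.286 for Junb and 0.299 for Jund. Next for both came Tpgs1, a subunit of the tubulin polyglutamylase complex (0.12 from Junb and 0.093 from Jund), and Mafa (0.121 and 0.103). Jun was 0.253 from Junb and 0.263 from Jund, and 52 listed genes were more like Junb than Jun was. The genes most like Jun were Chpf, a chondroitin polymerizing factor (0.04), Snrpa, a protein of the U1 small nuclear ribonucleoprotein (0.047), and Cox6a1, a subunit of cytochrome c oxidase (0.049). The log2 fold changes of these 3 were 0.20, 0.25 and 0.21. Likeness here includes the difference between the groups, which all listed genes share by selection.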

How the data were processed

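mRNA libraries of MIN6N8 cells (TruSeq stranded kit) were sequenced and mapped to mm10 by the authors, and the aligner and counting program are not given in the sources used here. The authors deposited whole-number counts for the 230 listed genes, not normalized, and CPM, which the authors scaled to all counted reads. The authors' deposited p-values, FDR, log2 fold changes and mean log2 expression describe their own comparison and were not used, except to test that all FDR lie below 0.05. Library totals, recovered as count over CPM at the most counted gene, were 23685886 to 35785875 with PBS and 26759222 to 30568907 with IL-22.

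Groups and replicate numbers came from sample titles. All listed genes were fitted with edgeR 4.0.16 (R 4.3.3), with library totals as the only scaling and at least 1 CPM in 5 libraries, and called at an adjusted p below 0.01. The fit was tested on simulated data. Exact tests used scipy 1.17.1, alternatives limma 3.58.1 and DESeq2 1.42.0. All 230 genes were found in GENCODE M21, 220 by the same symbol and 10 by another. Named genes are the members, listed genes of lists on AP-1 partners, MAP kinases, immediate-early genes, JAK-STAT3, beta-cell and other pancreas markers, and the 3 listed genes most like each member. Map3k10 was named in addition, from outside these lists. A further list is not reported here. Members and lists were chosen with earlier results of these data known.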

Additional observations from a re-analysis of the deposited data

Results flagged for a closer look

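In 16 groups of 5 libraries, covering the CPM of the 3 members, their 3 ratios, the library total and the GC index in both conditions, 1 library stood apart, and chance gives about 0.8 of them. This was IL-22 3 in the log2 ratio of Junb to Jun, at -1.42 with the other IL-22 libraries between -1.36 and -1.34. It still lay above all PBS libraries.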

How the results depend on the processing

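The log2 fold changes of Jun, Junb and Jund were positive under all alternatives run. Scaling factors computed over the listed genes moved the median of those genes by -0.2 (TMM) and -0.19 (DESeq2 size factors), left Junb and Jund past 0.01, and gave Jun 0.041 and 0.051 (no longer past 0.01), with 18 and 30 genes called higher and 33 lower in both. With all protein-coding genes as tests, Junb (0.75), Jund (0.67) and Jun (0.25) no longer passed 0.01, with 7 genes called higher and 0 lower (33 lower at an unadjusted p under 0.05). With the GC index, Jun (0.14) did not pass, with 36 genes called higher and 0 lower (17 lower at an unadjusted p under 0.05). The excess over Jun was then 0.34 for Junb and 0.19 for Jund, and that of Junb over Jund was 0.15. The pooled SD of these log2 ratios within groups, without the index, was 0.14, 0.16 and 0.083, and the adjusted differences were not tested. The causes were not tested.

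Same-numbered libraries deviated together in replicates 1 to 3 (correlation across genes 0.257, 0.287 and 0.256) but not in 4 and 5 (0.00445 and -0.144). Of 10 libraries, 5 correlated best with their own number. Whether the numbers pair the libraries was not settled by these values, and the main fit did not pair them. The replicate block gave 193 genes higher and 32 lower, against 187 and 31 without it. With the block and all protein-coding genes as tests, Junb (0.76) and Jun (0.25) did not pass 0.01 and Jund (0.70) did, with 9 genes higher and 0 lower (33 lower at an unadjusted p under 0.05). With the block and the GC index, Jun (0.17) did not pass, with 32 genes higher and 2 lower. With the block, the excess over Jun stayed 0.51 for Junb and 0.45 for Jund (exact sign-flip test, adjusted p = 0.0938), where 5 pairs cannot pass 0.05.

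When single libraries were left out, the members stayed past 0.01, with log2 fold changes of 0.22 to 0.28 for Jun, 0.67 to 0.85 for Junb and 0.59 to 0.80 for Jund. Counts ranged from 127 to 196 higher and from 15 (without IL-22 4) to 32 lower, and the difference of Junb from Jund from 0.044 to 0.11. The order of levels per kb was the same with the shortest coding transcript, since each member has 1.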
